A study of Homo sapiens with 2 samples.

Results

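The genes described here are those of WNT signalling: the secreted ligands, the enzymes that make them, their receptors and co-receptors, secreted modulators, cytoplasmic transducers and the transcription factors at the end of the pathway. Members were picked by a rule on gene symbols that uses no measured value, although earlier results of these data were known when the rule was made. The rule names 58 annotated genes, of which 49 had a value in the table and 9 did not, out of 17912 genes listed in all. RNF43 had several rows and was left out, and WNT2, WNT8A, WNT8B, WNT9B, SFRP2, SFRP5, DKK4 and RSPO2 had no row.

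RNA was measured in U2OS, an established human osteosarcoma line, grown asynchronously and exposed over 18 h to aphidicolin at 0.3 µM. Aphidicolin is an inhibitor of DNA polymerases that slows replication. The 2 libraries of poly(A)-selected RNA are replicates of this single treated group, and since separate cultures are not stated for them, their spread may be technical. Untreated cells were not analysed here, so every value below is a level in treated cells and none is a response to aphidicolin. In such bulk RNA, fewer cells expressing a gene and less RNA per cell cannot be told apart.

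WNT ligands are lipid-modified by PORCN and carried to the cell surface by WLS. On the receiving cell they bind Frizzled receptors, together with LRP5 or LRP6 in the canonical branch, and Dishevelled proteins then inhibit the complex of AXIN and APC that marks β-catenin for destruction. Spared β-catenin enters the nucleus and acts with TCF and LEF factors. R-spondins protect Frizzled receptors from the ubiquitin ligases ZNRF3 and RNF43, while SFRP and some DKK proteins block the ligands or the co-receptors. In the bone lineage the canonical branch is known for promoting osteoblast formation.

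Levels are RPKM, reads scaled to the exonic length and to the library's total, and means are over both libraries with the SD (n = 2). Whole reads could be recovered from the RPKM, from totals of 13227805 reads in replicate 1 and 13020149 in replicate 2. At 1 RPKM, 2 kb of exon corresponded to 26.5 reads in replicate 1 and to 26.0 in replicate 2. A level of at least 1 RPKM in both libraries is called passing. The mesenchymal markers SPARC, VIM and COL1A1 lay between 208 and 283 RPKM, and 7 of 9 listed osteoblast and mesenchymal markers passed, while BGLAP and COL1A2 were below 1 RPKM and SP7 had no row. None of 4 listed endothelial markers passed, and 1 of 4 haematopoietic markers did (CD3D, mean 1.11 RPKM). Of the epithelial markers 5 of 7 did, led by the keratins KRT18 and KRT8 at means of 42.6 and 29.8 RPKM. MUC1, EPCAM and CLDN4 passed at means from 4.35 to 1.97 RPKM, while CDH1 and ESRP1 were below 1 RPKM and KRT19 had no row. Of all listed genes 66.7% passed. The osteoblast and mesenchymal share of 77.8% and the epithelial share of 71.4% lay near that.

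RefSeq promoter windows (GRCh38.p14, 250 bases before to 50 after the RefSeq start) were matched by symbol for 35 of the 49 members. Because under 80% had a window, a comparison of promoter composition over the members is void, and single windows are described only. The core letters bound by TCF and LEF factors were searched on both strands as CTTTG followed by A or T at each of the next 2 bases, which cannot overlap one another on a strand. These occur in 13.8% of all 35116 RefSeq windows of this length and in 9.55% of those of 13486 listed genes. They occur in 2 of the 35 member windows, and no comparison is drawn from this. Both are shown, with the matched letters in capitals, because they are the member windows that carry the letters of the factors at the end of this pathway. In that of DKK1 (chr10:52314031-52314330, plus strand) they start 95 and 76 bases before the start. In that of WNT3 (chr17:46818643-46818942, minus strand) they start 19 bases after it. Such matches are letters only, and binding was not measured.
DKK1: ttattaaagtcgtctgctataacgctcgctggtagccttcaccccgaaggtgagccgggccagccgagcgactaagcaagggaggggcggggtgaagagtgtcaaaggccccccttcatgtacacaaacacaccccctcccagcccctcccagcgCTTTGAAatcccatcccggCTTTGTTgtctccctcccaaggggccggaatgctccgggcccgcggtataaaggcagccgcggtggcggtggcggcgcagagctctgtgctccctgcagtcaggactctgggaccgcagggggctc
WNT3: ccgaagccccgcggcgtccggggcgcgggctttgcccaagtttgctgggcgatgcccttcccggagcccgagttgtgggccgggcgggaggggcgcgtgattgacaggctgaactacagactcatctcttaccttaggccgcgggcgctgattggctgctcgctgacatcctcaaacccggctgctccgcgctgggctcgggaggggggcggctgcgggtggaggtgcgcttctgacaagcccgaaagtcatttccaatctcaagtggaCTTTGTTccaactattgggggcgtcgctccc
The windows of TCF7L1 (chr2:85133142-85133441, plus strand) and TCF7 (chr5:134115363-134115662, plus strand) are shown because these genes of the same family lay farthest apart in level within it. CpG dinucleotides are in capitals, 31 in TCF7L1 and 25 in TCF7, against a median of 24 over 13486 listed genes with a window. The windows of both genes are thus above that median.
TCF7L1: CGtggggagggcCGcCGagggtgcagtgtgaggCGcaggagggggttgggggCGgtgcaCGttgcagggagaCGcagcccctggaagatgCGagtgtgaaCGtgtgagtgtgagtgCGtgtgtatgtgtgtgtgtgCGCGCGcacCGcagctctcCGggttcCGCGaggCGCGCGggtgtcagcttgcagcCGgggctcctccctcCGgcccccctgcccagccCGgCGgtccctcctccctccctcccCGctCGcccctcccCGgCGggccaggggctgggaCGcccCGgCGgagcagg
TCF7: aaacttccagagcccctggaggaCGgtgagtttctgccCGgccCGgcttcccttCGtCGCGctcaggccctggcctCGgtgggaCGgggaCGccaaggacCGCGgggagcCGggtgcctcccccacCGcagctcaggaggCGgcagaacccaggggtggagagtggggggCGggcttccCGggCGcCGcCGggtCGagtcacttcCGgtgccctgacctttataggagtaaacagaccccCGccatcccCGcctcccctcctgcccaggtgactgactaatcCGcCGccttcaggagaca

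Of the 49 members 32 passed, or 65.3%, against 66.7% of all listed genes. The members thus passed about as often as any listed gene, and their median of 3.33 RPKM lay beside a median of 3.53 RPKM over all. They ranged from 0.0315 RPKM for WNT1 to 30.3 RPKM for FZD6. The roles were uneven in this range: both LRP co-receptors, both ligand-processing genes, all 3 Dishevelled genes and all 3 listed genes of the destruction complex passed, but 6 of 15 ligands, 2 of 5 secreted inhibitors and 1 of 3 R-spondins did. The count of ligands depends on the unit: 12 of 15 reached 1 TPM, 1 CPM or 10 reads in both libraries, beside 81.6%, 78.1% and 80.8% of all listed genes, so at those levels the ligands passed about as often as any listed gene. Role sizes are small, and no test was made of them.

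**Figure D1:**
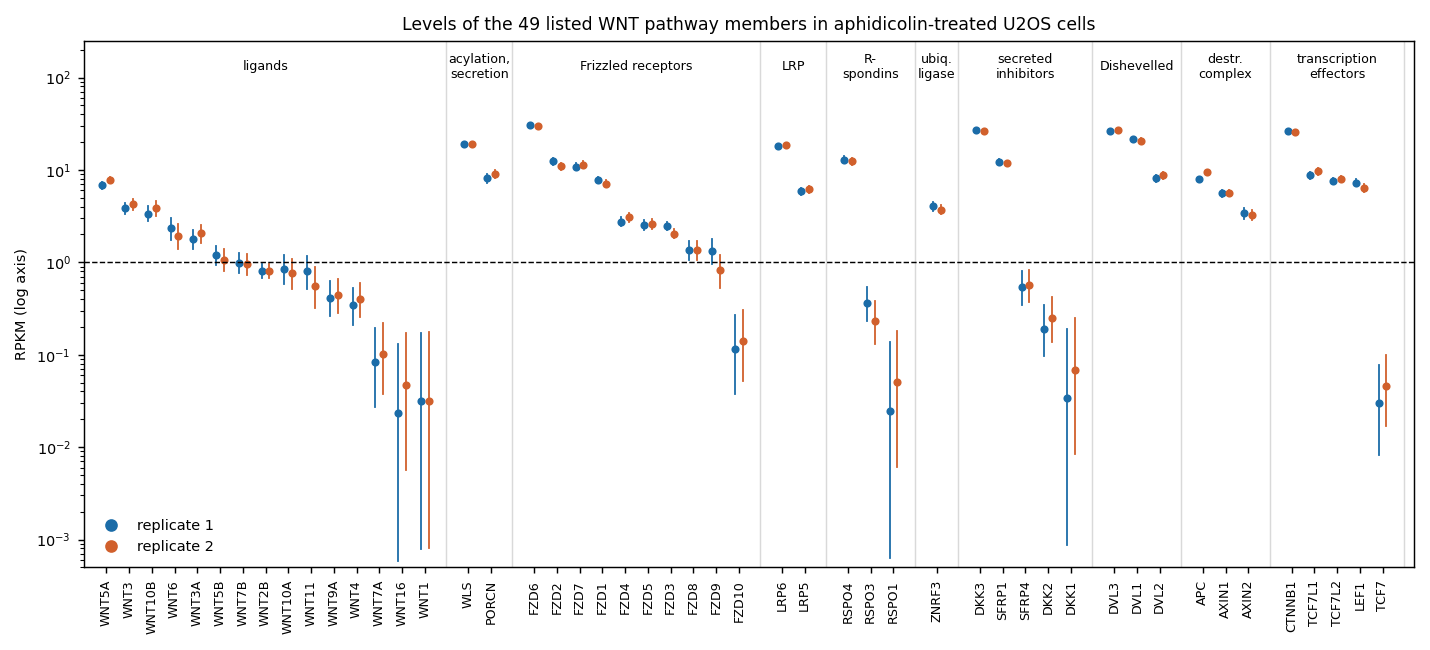
RPKM on a log axis for each of the 49 members in replicate 1 (blue) and replicate 2 (orange), grouped by role and ordered by mean; bars are exact Poisson 95% intervals of the reads, which cover counting error only, and the dashed line is 1 RPKM. FZD6, DVL3, DKK3 and CTNNB1 stand highest at means of 25.9 to 30.3 RPKM, and WNT1, WNT16, RSPO1 and TCF7 lowest at means of 0.0315 to 0.0378 RPKM.

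Among the ligands, WNT5A led. WNT5A, which acts mainly outside the β-catenin branch, had 6.80 RPKM in replicate 1 and 7.80 RPKM in replicate 2, from 665 and 751 reads. It lies on chromosome 3 from 55465715 to 55490539 on the minus strand (GENCODE 29, GRCh38). Its values lay above those of every other ligand in both libraries, and its mean of 7.30 ± 0.71 RPKM was 1.80 times that of the next, WNT3. WNT3, a canonical ligand, had 3.86 and 4.25 RPKM in replicates 1 and 2, values that an uncharacterised locus, LOC101929777, also carried. WNT10B, a ligand known to favour bone formation in mice, had 3.37 and 3.84 RPKM, so its higher library lay just below the lower library of WNT3.

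WNT6 had 2.33 and 1.92 RPKM in replicates 1 and 2. WNT3A, the ligand most used to switch on the canonical branch in culture, had 1.77 and 2.05 RPKM. The values of WNT6 and WNT3A overlapped, and their order is not resolved by these libraries. WNT5B, the close relative of WNT5A, had 1.19 and 1.07 RPKM, and WNT5A exceeded it by a ratio of 6.49 ± 1.14. The remaining 9 listed ligands were below 1 RPKM in at least 1 library. WNT7B, WNT2B, WNT10A and WNT11 had means from 0.967 to 0.674 RPKM, and the values of WNT10A overlapped with those of WNT2B and of WNT11. WNT9A and WNT4 had means of 0.428 and 0.369 RPKM, and WNT7A had 5 and 6 reads. WNT16 had 1 read in replicate 1 and 2 in replicate 2, and WNT1 had 1 read in each, both under the limit of 3 reads that a count of 0 allows.

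Ligand genes that adjoin each other in the genome did not share a level. WNT10B and WNT1 lie head to head on chromosome 12, 6.69 kb apart, with means of 3.61 and 0.0315 RPKM. WNT3A and WNT9A lie 59.2 kb apart on chromosome 1 with means of 1.91 and 0.428 RPKM, a ratio of 4.45 ± 0.28. WNT6 and WNT10A, which run in the same direction on chromosome 2 with 6.13 kb between them, had means of 2.13 and 0.809 RPKM, a ratio of 2.62 ± 0.15. In each of these 3 neighbouring sets the library values did not overlap. In WNT10B and WNT1 the lower gene rested on 2 reads in all.

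Both genes for making a WNT secretable were above every ligand in RPKM, although in CPM PORCN, at 25.8, was below WNT5A, at 54.0. WLS, the carrier that takes WNT proteins to the cell surface, had 19.0 RPKM in replicate 1 and 18.9 RPKM in replicate 2. PORCN, the acyltransferase that attaches the lipid, had 8.08 and 9.03 RPKM. WLS was thus 2.22 ± 0.18 times PORCN per length, and PORCN still lay above the higher library of WNT5A.

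Frizzled receptors were the family with the highest summed level, 70.8 ± 1.8 RPKM, against 24.3 ± 0.97 RPKM for all 15 ligands. FZD6, which is known for planar cell polarity and for restraining canonical signalling, had 30.4 RPKM in replicate 1 and 30.1 RPKM in replicate 2. It was the highest of all 49 members and rank 1536 among the 17912 listed genes, and it held 42.8 ± 0.74% of the family's summed RPKM. FZD2, a receptor for WNT5A, had 12.4 and 10.9 RPKM. FZD7, a canonical receptor found on stem and tumour cells, had 10.8 and 11.4 RPKM. FZD2 and FZD7 overlapped, and FZD6 exceeded FZD2 by a ratio of 2.61 ± 0.22.

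FZD1 had 7.81 and 7.11 RPKM in replicates 1 and 2, below both libraries of FZD7. FZD4, the receptor for norrin, had 2.76 and 3.06 RPKM, and 18.9% of its exonic bases are shared with PRSS23. FZD5 had 2.56 and 2.61 RPKM. These values of FZD4 and FZD5 lay close but did not overlap, as those of FZD5 and the next gene did not. FZD3, known for axon guidance, had 2.48 and 2.04 RPKM, and FZD8 had 1.35 RPKM in both libraries. FZD9 had 1.32 RPKM in replicate 1 and 0.820 in replicate 2, from 41 and 25 reads, and so crossed the level in 1 library only. FZD10 was near the bottom with 5 and 6 reads. Of the 6 Frizzled genes that GENCODE 29 gives as a single exon, FZD2, FZD7, FZD1 and FZD8 passed and FZD9 and FZD10 did not. Single-exon genes thus stood both lowest, as FZD8, FZD9 and FZD10, and next below FZD6, as FZD2, FZD7 and FZD1. FZD6 at the top and FZD4, FZD5 and FZD3 in the middle have more than a single exon.

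Of the LRP co-receptors, LRP6 had 18.3 RPKM in replicate 1 and 18.4 RPKM in replicate 2. LRP5, whose loss lowers bone mass in humans, had 5.87 and 6.20 RPKM. LRP6 was thus 3.04 ± 0.11 times LRP5 per length, with a gap far wider than the spread of either gene. LRP6 lies on chromosome 12 from 12116025 to 12267012 and LRP5 on chromosome 11 from 68312609 to 68449275.

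**Figure D2:**
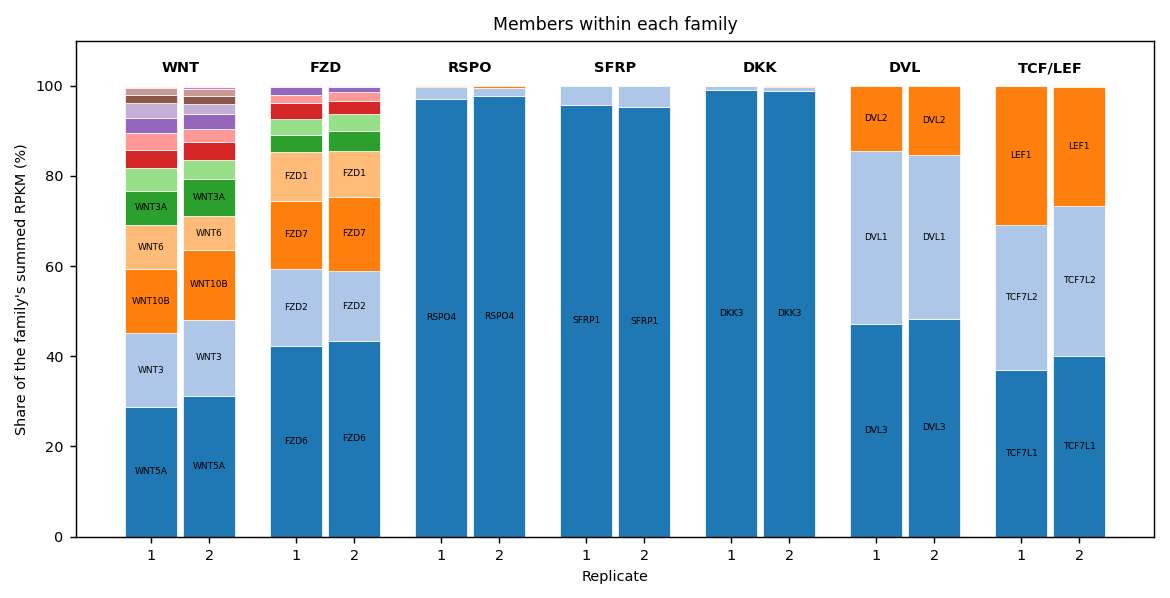
Share in percent of each family's summed RPKM held by each member, with replicate 1 left and replicate 2 right in every family; members of 6% or less are drawn without a name. RSPO4, SFRP1 and DKK3 fill over 95% of the sums drawn for their families in both libraries. WNT5A, FZD6, DVL3 and TCF7L1 lead theirs with 28.7% to 48.2%. The SFRP sum holds SFRP1 and SFRP4 only, without FRZB.

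In 3 secreted families a single gene held nearly all of the level. RSPO4, an R-spondin whose loss in humans leaves the nails absent, had 12.9 RPKM in replicate 1 and 12.3 RPKM in replicate 2, from 470 and 443 reads. RSPO3 had 0.366 and 0.232 RPKM, RSPO1 had 1 and 2 reads, and RSPO4 therefore made up 97.4 ± 0.50% of the R-spondin sum. RSPO4 lies on chromosome 20 from 958452 to 1002264 on the minus strand, and none of its exonic bases is shared with another annotated gene. ZNRF3, the ubiquitin ligase that clears Frizzled receptors and is itself held back by R-spondins, had 4.03 and 3.70 RPKM in replicates 1 and 2. For RNF43, its partner, the 4 rows held every combination of 0.0259 and 0.755 RPKM in replicate 1 with 0.0527 and 0.778 RPKM in replicate 2, all below 1 RPKM.

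Among inhibitors, DKK3 had 26.7 RPKM in replicate 1 and 26.3 RPKM in replicate 2. DKK3 is the divergent Dickkopf, which unlike DKK1 is not known as a general blocker of LRP6. DKK2 had 11 and 14 reads, and DKK1, the classical LRP5 and LRP6 antagonist, had 1 and 2 reads. DKK3 accordingly held 99.0 ± 0.25% of the family's sum, and the other listed Dickkopf genes had at most 14 reads in a library. SFRP1, a secreted protein that binds WNT ligands and Frizzled receptors, had 12.1 and 11.7 RPKM, against 0.539 and 0.569 RPKM for SFRP4. SFRP1 was thus 21.5 ± 1.3 times SFRP4, and DKK3 was 2.23 ± 0.019 times SFRP1.

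The Dishevelled genes, which act downstream of Frizzled receptors, all passed. DVL3 had 26.4 RPKM in replicate 1 and 27.3 RPKM in replicate 2, DVL1 had 21.7 and 20.6 RPKM, and DVL2 had 8.08 and 8.72 RPKM. No 2 of them overlapped. DVL3 and DVL1 lay close, at a ratio of 1.27 ± 0.075, and DVL3 was 3.20 ± 0.095 times DVL2. Together they summed to 56.4 ± 0.33 RPKM.

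The scaffolds of the destruction complex were lower in RPKM than the Dishevelled genes other than DVL2. In CPM, APC, at 108, was above DVL1, at 82.0. APC, the tumour suppressor that holds β-catenin in the complex, had 7.96 RPKM in replicate 1 and 9.44 RPKM in replicate 2. AXIN1, its main scaffold, had 5.61 and 5.64 RPKM. AXIN2, both a scaffold and a feedback target that canonical signalling switches on in many tissues, had 3.40 and 3.26 RPKM. None of these 3 overlapped, and AXIN1 was 1.69 ± 0.055 times AXIN2. In AXIN2, 25.2% of the exonic bases are shared with the unnamed gene AC004805.1. Whether counting used strand is not given, so reads of the 2 genes cannot be told apart on those shared bases.

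CTNNB1, which encodes β-catenin, had 26.1 RPKM in replicate 1 and 25.7 RPKM in replicate 2 and led the transcription effectors. TCF7L1, known mainly as a repressor of WNT targets, had 8.75 and 9.67 RPKM. TCF7L2 had 7.62 and 7.98 RPKM. LEF1, which lies beside its antisense partner LEF1-AS1 with 5.20% of exonic bases shared, had 7.30 and 6.39 RPKM. These 3 factors lay close, at ratios of 1.18 ± 0.045 for TCF7L1 over TCF7L2 and 1.15 ± 0.15 for TCF7L2 over LEF1, and neighbours in the order did not overlap. TCF7 had 4 and 6 reads, or 0.0378 ± 0.011 RPKM, so TCF7L1 exceeded it by a ratio of 252 ± 56.8. The windows of these last 2 genes are printed above.

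Because RPKM divides by exonic length, the order of members depends on the length the authors used. That length, as implied by the recovered reads, came within 10% of GENCODE 29 for 44 of the 49 members. This closeness is partly built in, since the multiple of reads was chosen to bring the length nearest to GENCODE 29, and for 16 members that multiple was above 1. It was 2.36 times GENCODE's for DKK3, 1.80 times for WNT1, 1.79 times for FZD2, 1.56 times for RSPO3 and 0.856 times for WNT10A. With GENCODE lengths DKK3 would stand at 62.6 RPKM and FZD2 at 20.8 RPKM, which would make DKK3 the highest member and leave FZD6 above FZD2. In CPM, reads scaled to the library total without division by length, DKK3, CTNNB1 and LRP6 led at 317, 304 and 190 CPM, and FZD6 came at 123 CPM. WNT2B, with an implied 12374 bases of exon, had 132 and 131 reads and ranked 3 among ligands by CPM, at 10.0 CPM, and 21.2% of its GENCODE exonic bases are shared with ST7L. TCF7L2 stood above TCF7L1 in CPM, at 52.5 and 40.8 CPM, so the order of these factors depends on the division by length.

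**Figure D3:**
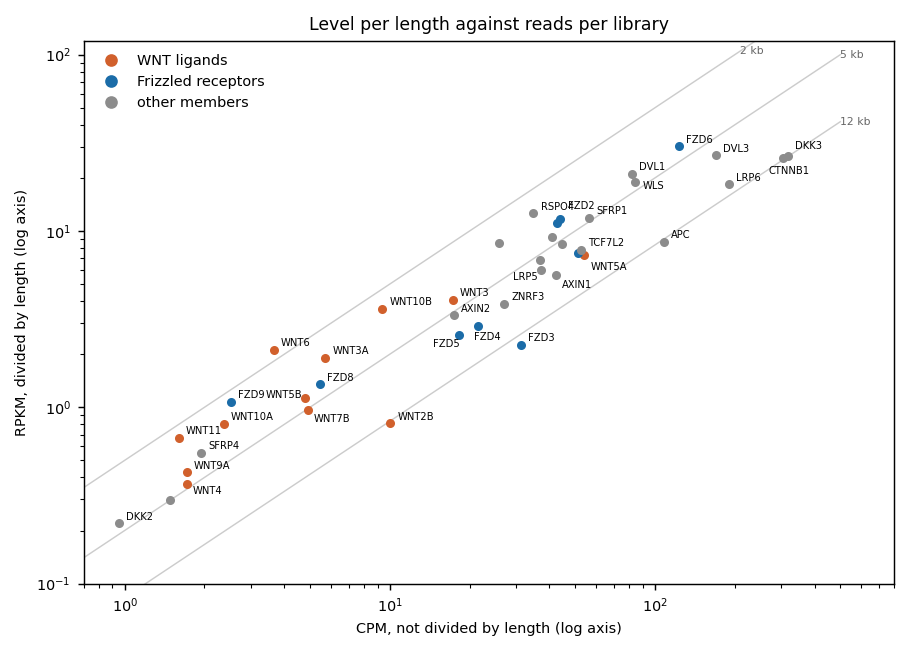
Mean RPKM against mean CPM on log axes for the 42 members at 0.2 RPKM or more, with ligands in orange, Frizzled receptors in blue and other members in grey; grey lines mark exonic lengths of 2, 5 and 12 kb, and some crowded points carry no name. WNT2B, FZD3, APC, CTNNB1 and DKK3 lie by the line of the longest exonic length, and WNT6, RSPO4 and WNT10B by that of the shortest.

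Levels of the members that passed differed between the libraries by an absolute log2 ratio of at most 0.27. The median absolute log2 ratio of replicate 1 over replicate 2 was 0.10 over the 32 members that passed, beside 0.07 over all 11944 such genes. A two-sided exact binomial test of reads with Benjamini-Hochberg adjustment over those genes called 1 member, while it called 1.65% of all. It called 0 members higher in replicate 1, against 0.653% of all genes, and 1 higher in replicate 2, against 0.996%. At an unadjusted p under 0.05 the exact test held 5 of 32 members, or 15.6%, against 11.8% of all. What is compared are the libraries alone, and the test allows for counting error only. The member was APC, which had 1310 and 1529 reads, and its log2 ratio was -0.25 ± 0.054 (counting SE, adjusted p = 0.000693 by the exact binomial test). FZD3 had the largest absolute log2 ratio of the 32 members, 0.27 ± 0.10, which did not pass (adjusted p = 0.174 by the same exact test). WNT5A, at -0.20 ± 0.077, did not pass either (adjusted p = 0.183 by the exact test).

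**Figure D4:**
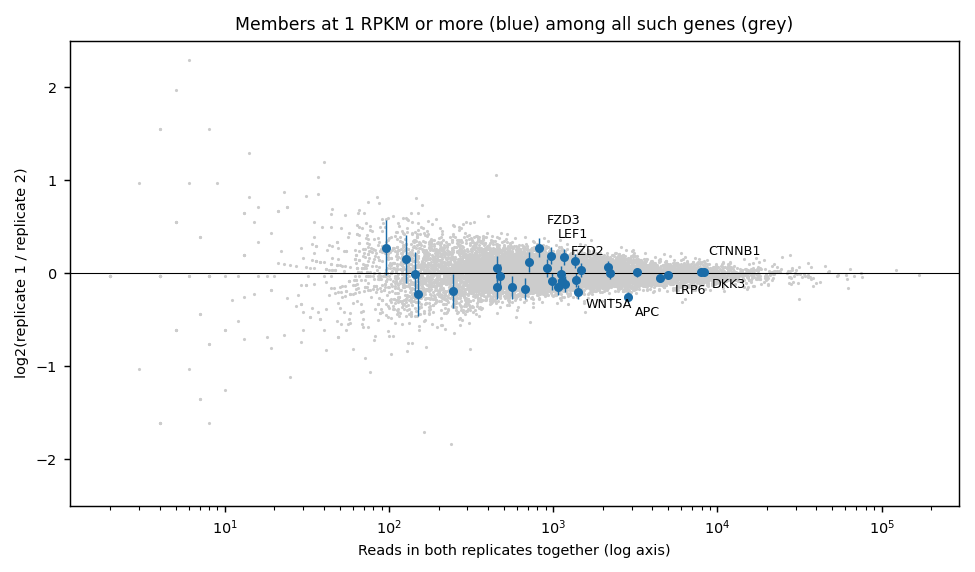
Log2 ratio of replicate 1 over replicate 2 against summed reads (log axis) for the 32 members that passed (blue, bars are counting SE) and all genes that passed (grey), after trimmed mean scaling. APC lies at -0.25 and FZD3 at 0.27, and CTNNB1, DKK3 and LRP6, with the most reads, lie near 0.

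Other genes of the pathway were listed in groups by role. Of 11 listed alternative receptors and receptor partners, 9 passed, or 81.8%, against 66.7% of all listed genes. No test was made of this or the following lists. PTK7, a pseudokinase receptor of planar polarity, led at 17.6 ± 0.083 RPKM, followed by RYK, a WNT-binding pseudokinase, at 13.7 ± 0.37 and the glypican GPC4 at 8.65 ± 0.44. The WNT5A receptors ROR2 and ROR1 stood at 3.70 ± 0.21 and 2.07 ± 0.12 RPKM. Of the R-spondin receptors, LGR4 had 5.56 ± 0.18 RPKM, LGR5 had 1.60 ± 0.018 and LGR6 was below the level at 0.366 ± 0.051. LGR4 thus led its family, as RSPO4 led its own.

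Of 11 further inhibitors 7 passed, or 63.6%, against 66.7% of all listed genes. IGFBP4, an insulin-like growth factor binding protein that also blocks LRP6, led at 43.8 ± 0.95 RPKM. KREMEN2 and KREMEN1, receptors through which DKK1 acts, had means of 7.17 and 4.83 RPKM although DKK1 itself was barely detected. NOTUM, the enzyme that strips the lipid from WNT proteins, had 3.94 RPKM in replicate 1 and 3.32 RPKM in replicate 2. SOST, the sclerostin gene of osteocytes, had 2 and 1 reads, and FRZB had 0.303 ± 0.058 RPKM. FRZB is an SFRP gene under another symbol, and the SFRP sum above leaves it out.

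Kinases and regulators of the destruction complex passed in 21 of 26 cases, or 80.8%, against 66.7% of all listed genes. Their median was 6.45 RPKM. GSK3A and GSK3B, the kinases that mark β-catenin, had 26.0 ± 2.4 and 17.5 ± 0.15 RPKM, and the casein kinase gene CSNK1G2 had 25.2 ± 2.1. The tankyrase gene TNKS2, whose product marks AXIN for removal, had 18.4 ± 0.26 RPKM. The other 5 were below the level, the lowest of them being FRAT1, CCDC88C and NKD2 at 0.807, 0.656 and 0.444 RPKM.

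Nuclear cofactors passed in 18 of 19 cases, or 94.7%, against 66.7% of all listed genes. Their median was 8.63 RPKM. The corepressor-related gene TLE5 led at 42.4 ± 0.32 RPKM, and the β-catenin cofactors PYGO2 and BCL9 followed at 27.8 ± 2.5 and 18.7 ± 0.96. TLE4 was the exception with 6 and 11 reads. Planar polarity genes passed in 11 of 13 cases, or 84.6%, against the same 66.7%. They were led by SCRIB at 30.9 ± 0.67 RPKM, VANGL2 at 16.3 ± 0.051 and VANGL1 at 14.9 ± 0.24. CELSR1 and INTU were below the level at 0.324 and 0.0879 RPKM. Planar polarity is the branch to which FZD6 is known to belong.

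Genes reported elsewhere as targets of canonical signalling held 14 that passed among 16 with a row, or 87.5%, against 66.7% of all listed genes. Their median was 4.27 RPKM. All 16 reached 1 TPM, 1 CPM and 10 reads in both libraries, beside 81.6%, 78.1% and 80.8% of all listed genes. NOTUM, LGR5 and NKD1 also stand in the lists above, and AXIN2, a member, is not in this list. CCND1 had 70.4 ± 0.70 RPKM, ENC1 had 36.3 ± 2.0 and BMP4 had 30.9 ± 1.1. Many signals besides WNT drive these 3 genes. Of the targets used as narrower readouts, a set not fixed beforehand, AXIN2, NOTUM and LGR5 lay between 1.60 and 3.63 RPKM. NKD1 was just under the level at 0.862 and 0.996 RPKM, although its 198 and 225 reads exceeded the 152 and 126 of NOTUM. TNFRSF19 had 0.364 ± 0.11 RPKM, and SP5, APCDD1, ASCL2 and CDX1 had no row. The remaining listed targets all passed: MYC, CD44, EPHB2, TBX3, ID2, EPHB3, SGK1, MMP7 and CDX2 had means from 26.4 down to 1.83 RPKM. Without an untreated or a WNT-stimulated library these levels show which target RNAs were present and not whether the pathway was active.

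**Figure D5:**
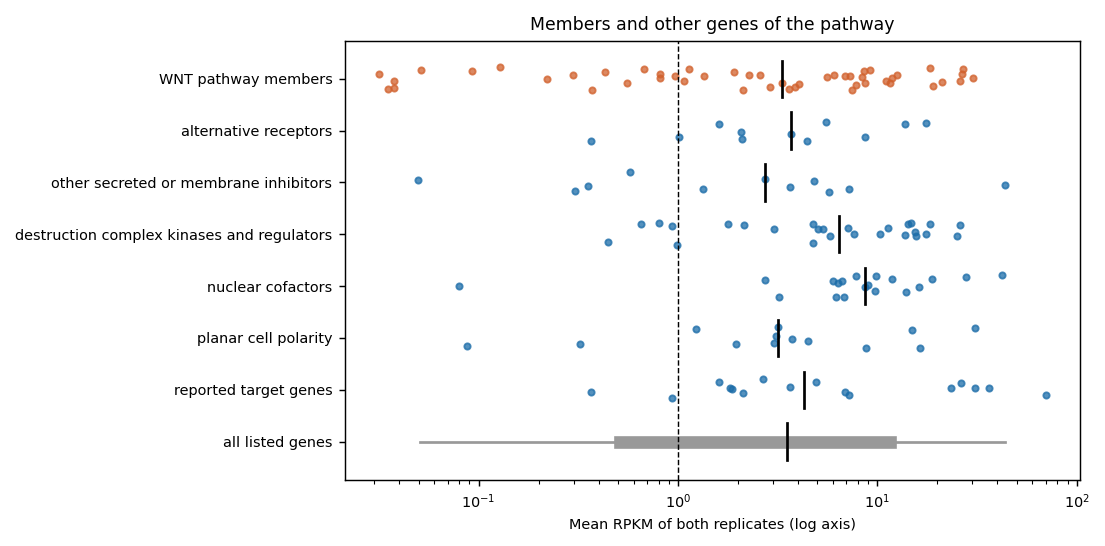
Mean RPKM on a log axis for the 49 members (orange) and for 6 lists of other pathway genes (blue), with a black bar at each median; the grey bar for all listed genes spans the middle of their distribution (box, 25th to 75th percentile; line, 5th to 95th). The medians of the lists run from 2.72 to 8.63 RPKM, beside 3.33 for the members and 3.53 for all listed genes.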

How the data were processed

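Poly(A)-selected RNA of U2OS cells in 0.3 µM aphidicolin was sequenced in 2 libraries, which form 1 group. The deposited values are RPKM, per the file headers, with 1 column per library. Trim Galore, HISAT2 and featureCounts with the builds hg38 and GRCh38.p13 are named in the submitters' processing notes; of versions, annotation, strand use and filters nothing is stated: not given in the sources used here.

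Of 18277 rows, those of 58 symbols with several rows were left out, and 18083 symbols remained. Symbols with both values alike were counted once, which left 17912 genes. Reads were recovered as whole numbers from the ratio of both columns (relative tolerance 2e-13), and the factor that makes the exonic length whole and nearest to GENCODE 29 was taken. The length came out whole for 99.7% of genes (tolerance 1e-06 bases). A planned comparison of protein sequences was not made, and no protein was used here.

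The members and lists were chosen with earlier results of these data known. Every member at 1 RPKM or more in both libraries is named. Members below it and at most 3 genes per end of other lists are named by role, and marker genes are given in ranges. Further list genes, among them the remaining targets, were named after their values were seen. Libraries were compared with a two-sided exact binomial test (trimmed mean of M values scaling, Benjamini-Hochberg 0.05). On data simulated for 11944 genes, the test recovered all 200 genes that had been altered 2-fold, and 3.85% of its 208 calls were false. The simulation held counting error alone, and its changes were larger than those of the passing members, at most 0.27 in absolute log2 ratio. Its rates need not hold for the real libraries, where 11.8% of genes had an unadjusted exact binomial p under 0.05. Poisson intervals are exact at 95% and cover counting error only. Alternatives covered the level, the unit, the length, the scaling and each library. Scripts ran under pandas 2.3.3, scipy 1.17.1, numpy 2.4.6 and Python 3.11.15.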

Additional observations from a re-analysis of the deposited data

How the results depend on the processing

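No paired analysis was possible because there is a single group. The GENCODE length alternative was chosen after seeing the data. The 32 passing members numbered 21 at 5 RPKM, where 42.8% of all listed genes passed, and 32 to 33 without either replicate, and stayed within 1.5 times at 0.5 RPKM, 1 TPM, 1 CPM, 10 reads and GENCODE lengths. Of list counts under alternatives, 113 of 128 stayed within 1.5 times. At 0.5 RPKM, passed by 73.9% of all, the ligands (6) numbered 10. At 1 TPM, 1 CPM and 10 reads, where 81.6%, 78.1% and 80.8% of all listed genes passed, they numbered 12 of 15 and the R-spondins (1) numbered 2, and at 10 reads the secreted inhibitors (2) numbered 4. At 5 RPKM the ligands numbered 1, the Frizzled receptors 4, the receptor ubiquitin ligases (1) 0, the alternative receptors 4, other inhibitors 3, planar polarity genes 4 and targets 7. The genes called different between libraries (197) numbered 108 at an adjusted p under 0.01, by construction of the stricter limit. 1 member was called in every setting tried. The median log2(RPKM + 1) of the members (2.11) was 1.78 with a pseudocount of 0.1, 3.11 over passing members only, and 2.09 to 2.13 without either replicate. From reads not divided by length, WNT5A held 45.8% of its family (29.9% in RPKM), FZD6 36.1% (42.8%), DVL3 57.2% (47.6%), TCF7L1 31.3% (38.5%), DKK3 99.7% (99.0%), RSPO4 95.6% (97.4%) and SFRP1 96.7% (95.6%). The SFRP sum is without FRZB in every setting. With GENCODE lengths FZD6 held 37.8%, DKK3 99.6% and RSPO4 96.2%. Without either replicate the shares were 28.7% to 31.2% for WNT5A, 42.3% to 43.3% for FZD6, 47.1% to 48.2% for DVL3, 36.9% to 40.2% for TCF7L1, 98.8% to 99.2% for DKK3, 97.1% to 97.8% for RSPO4 and 95.4% to 95.7% for SFRP1. Depth limits members of few reads, such as WNT1, WNT16, RSPO1, DKK1 and TCF7.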
